A study of Mus musculus with 32 samples.

Results

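The genes described are 60 chromatin and DNA methylation enzymes and readers of the mouse, followed in bone marrow-derived dendritic cells with and without an intact immunoproteasome. They were chosen by symbol and level. Of 22216 genes in the tables, 66 have a symbol that starts with Kdm, Kat, Hdac, Ezh, Dnmt, Tet, Sirt, Setd, Smyd or Brd followed by a digit. Of these, 60 reached 1 RPKM (a read level scaled to gene length and to library size) in 4 or more of the 32 libraries, and all 60 are among the 11154 genes tested. They are 15 lysine demethylases (Kdm), 9 histone deacetylases (Hdac), 8 Setd and 4 Smyd methyltransferases, 7 sirtuins (Sirt), 7 bromodomain genes (Brd), 3 acetyltransferases (Kat), 3 DNA methyltransferases (Dnmt), 2 Tet dioxygenases and 2 Polycomb methyltransferases (Ezh). Tet1, Hdac9, Dnmt3b, Hdac11 and Kdm4d did not reach 1 RPKM in any library, and Smyd1 did so in 1. Just inside the threshold lay Dnmt3l, which reached it in 10 libraries, and Smyd4, Hdac10 and Setd4, which each did so in 13. Dnmt3l passed through dKO cells, with 8 dKO and 2 WT libraries at 1 RPKM. Setd4, Smyd4 and Hdac10 passed through the early times, with 1 library each at 2 and 6 h together, and Hdac7 had 3 there. The rule thus favours a higher level of Dnmt3l in dKO and a fall of the other 4 with LPS. They stay in the counts, and these differences are given as values with no test. The falls of Sirt4 and Sirt5, which had 4 libraries each at 2 and 6 h together, are treated in the same way. The 60 genes lie on 20 chromosomes, with 6 each on chromosomes 6 and 11, 4 on X and 1, Kdm5d, on Y.

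Chromatin marks are placed by writers, removed by erasers and bound by readers. Acetyltransferases add acetyl groups to histone lysines and so loosen chromatin, and deacetylases of the Hdac and sirtuin families remove them. Methyltransferases with a SET domain (Setd, Smyd, Ezh) methylate lysines, and lysine demethylases take those groups off again, by a flavin-dependent reaction in Kdm1a and Kdm1b and by a jumonji domain that uses oxoglutarate and iron in the others. DNA methyltransferases methylate cytosine in CpG pairs, and Tet enzymes oxidise it on the way to removal. In dendritic cells and macrophages, Toll-like receptor signals open the chromatin of cytokine genes, and Kdm6b, Tet2, the deacetylases and the BET bromodomain proteins are known as regulators of that response. Not every enzyme here acts mainly on chromatin. Setd3 methylates actin, Hdac6 deacetylates tubulin, Sirt3, Sirt4 and Sirt5 work in mitochondria, and Dnmt3l has no catalytic activity of its own.

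The cells were grown from bone marrow of C57BL/6 mice in GM-CSF, a growth factor for myeloid cells, and harvested on day 9. Mice were wild type (WT) or Lmp7-/-Mecl1-/- (dKO), which lack the immunoproteasome subunits LMP7 and MECL1, encoded by Psmb8 and Psmb10. Lipopolysaccharide (LPS), a component of bacterial cell walls that matures dendritic cells, was added at 1 µg/mL, and cells were taken at 0 (no LPS), 1, 2 and 6 h. The 8 groups of genotype and time, WT at 0, 1, 2 and 6 h and dKO at 0, 1, 2 and 6 h, have 4 libraries each. The labels do not say whether the 4 came from separate mice or cultures, so each p-value rests on the scatter of these libraries alone, and that scatter may be technical.

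The aligned sequence came to 1.27 to 1.87 Gb a library, and 9188 to 10701 genes reached 1 RPKM. Psmb8 stood at 150.3 to 312 RPKM in the 16 WT libraries and at 2.67 to 7.42 in the 16 dKO libraries, and Psmb10 at 41.6 to 131 against 2.37 to 17.1. When each library was compared with the WT means of the 4 times, all 16 WT and 11 dKO libraries lay nearest to their own time. The other 5 did not. Among libraries numbered 2, those labelled dKO 0 h, 1 h and 2 h were closest to the WT means of 1 h, 2 h and 0 h. Among those numbered 4, the libraries labelled dKO 2 h and 6 h were closest to the WT means of 6 h and 2 h. They were kept in their labelled groups, and results are given with and without these 5 libraries. Of a list of 10 dendritic cell markers, Itgax (170.4 to 528 RPKM), H2-Ab1 (1421 to 2882 RPKM) and Cd74 (4873 to 8973 RPKM) were high in all 32 libraries. Others on that list were not: Zbtb46 stood at 8.54 to 26.9 RPKM in WT and 5.75 to 18.5 in dKO, and Flt3 at 0.467 to 2.00 and 0.105 to 0.664. Macrophage markers were present as well, with sums of 498 to 1660 RPKM in WT and 781 to 2041 in dKO. B cell markers summed to at most 2.32 RPKM, T and NK cell markers to at most 7.61, stromal markers to at most 6.15 and erythroid markers to at most 1.22, with Hba-a1 at 0. Granulocyte markers were present and differed with genotype, as described beside the genotype results.

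Promoter sequence was available for 49 of the 60 genes, as the 250 bases before 74 annotated start sites (RefSeq, GRCm38.p6, a later build than that of the expression tables). These windows were rich in CpG pairs, the substrate of the Dnmt and Tet enzymes: the median was 18 CpG pairs in the windows of these genes and 6 in all 32841 windows, and 81.1% against 37.8% held 10 or more. The 32841 windows were not limited to the genes tested. The CpG and motif shares therefore do not set these genes apart from other genes at a like level. Short forms of 10 motifs were searched on both strands, N standing for any base; they were chosen after a search with longer forms of 3 of them had been seen. The GC box (GGGCGG) was found in 58.1% of the windows of these genes against 32.7% of all windows, and the CCAAT box (CCAAT) in 36.5% against 33.9%. The NRF1 motif (GCATGCGC) was in 4.05% against 2.26%, in Brd2, Sirt6 and Sirt7, and the AP-1 motif (TGANTCA) in 5.41% against 6.75%, in Kat2b, Kdm3a, Kdm4a and Kdm5c. An NF-kappaB motif (GGGANTTTC) was in none of the 74 windows and in 0.941% of all windows, and the CRE motif (TGACGTCA) in none and in 1.55%. The ISRE (GAAANNGAA) was in 2.7% against 7.13%, the PU.1 motif (GAGGAAGT) in 1.35% against 2.44%, and the E2F motif in 0% against 0.417% as TTTGGCGC and in 2.7% against 0.895% as TTTCCCGC. The motifs of different factors can overlap on the same bases, and a match is only a match of letters. The windows of 4 genes are shown because they differ most in what the expression data show: Ezh2 was lower in dKO libraries at every time, Tet2 and Kdm4a rose with LPS early and late, and Hdac5 fell the most. All 4 are written 5′ to 3′ on the gene's strand, the minus strand, with motif matches in capitals. Ezh2 is shown at chr6:47595031-47595280 with 23 CpG pairs and CCAAT boxes at base 187 and, on the reverse strand, at bases 161 and 240. Tet2 is shown at chr3:133544391-133544640 with 51 CpG pairs and a GC box on the reverse strand at base 240. Kdm4a is shown at chr4:118180044-118180293 with 12 CpG pairs, an AP-1 match at base 61 and a reverse CCAAT box at base 220. Hdac5 is shown at chr11:102230173-102230422 with 12 CpG pairs, reverse CCAAT boxes at bases 117 and 150 and a reverse GC box at base 157. Entries for Hdac1 and Kdm6b were not in the table.
Ezh2: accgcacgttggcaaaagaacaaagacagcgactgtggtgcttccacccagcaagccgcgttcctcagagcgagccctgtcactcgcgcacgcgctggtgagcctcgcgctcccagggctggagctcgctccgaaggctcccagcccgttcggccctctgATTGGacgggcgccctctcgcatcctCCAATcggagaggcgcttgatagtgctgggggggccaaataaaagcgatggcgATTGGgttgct
Tet2: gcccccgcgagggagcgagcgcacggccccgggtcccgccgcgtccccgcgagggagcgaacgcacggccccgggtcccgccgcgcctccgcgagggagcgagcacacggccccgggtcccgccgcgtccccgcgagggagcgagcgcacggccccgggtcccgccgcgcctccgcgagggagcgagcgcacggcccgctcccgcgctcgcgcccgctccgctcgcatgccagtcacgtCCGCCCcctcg
Kdm4a: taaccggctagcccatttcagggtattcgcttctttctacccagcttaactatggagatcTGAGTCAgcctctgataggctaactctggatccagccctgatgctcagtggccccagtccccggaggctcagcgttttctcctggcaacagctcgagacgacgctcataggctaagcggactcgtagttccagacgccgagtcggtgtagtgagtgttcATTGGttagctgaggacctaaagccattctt
Hdac5: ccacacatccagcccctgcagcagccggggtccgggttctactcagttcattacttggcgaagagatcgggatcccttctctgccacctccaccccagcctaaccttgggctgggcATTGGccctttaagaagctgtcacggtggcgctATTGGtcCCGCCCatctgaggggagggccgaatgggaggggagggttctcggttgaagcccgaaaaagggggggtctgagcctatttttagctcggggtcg

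Before LPS, the 60 genes covered a wide range of levels in WT cells, with a median of the 4-library means of 12 RPKM against 10.6 RPKM over all genes tested. Sirt2, a mainly cytoplasmic deacetylase, had the highest mean at 62.3 ± 2.18 RPKM (SD, n = 4), followed by Brd2 at 53.3, Setd3 at 43.2 and Sirt7 at 40.5 RPKM. Among DNA methylation enzymes the maintenance methyltransferase Dnmt1 stood at 24.3 RPKM, the de novo enzyme Dnmt3a at 10.4 and its cofactor Dnmt3l at 0.833, with Dnmt3b below 1 RPKM throughout. The Tet genes were led by Tet2 at 16.4 RPKM, with Tet3 at 12.3 and Tet1 below 1. Ezh1 at 19.9 RPKM stood above Ezh2 at 12.5. The class I deacetylases, which act in nuclear corepressor complexes, stood at 25.5 (Hdac3), 16.5 (Hdac2) and 16 RPKM (Hdac1), and the signal-regulated class IIa genes at 22.6 (Hdac5), 8.08 (Hdac4) and 2.83 RPKM (Hdac7). The highest demethylase was Kdm4a at 33 RPKM and the lowest Kdm1b at 5.92.

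**Figure D1:**
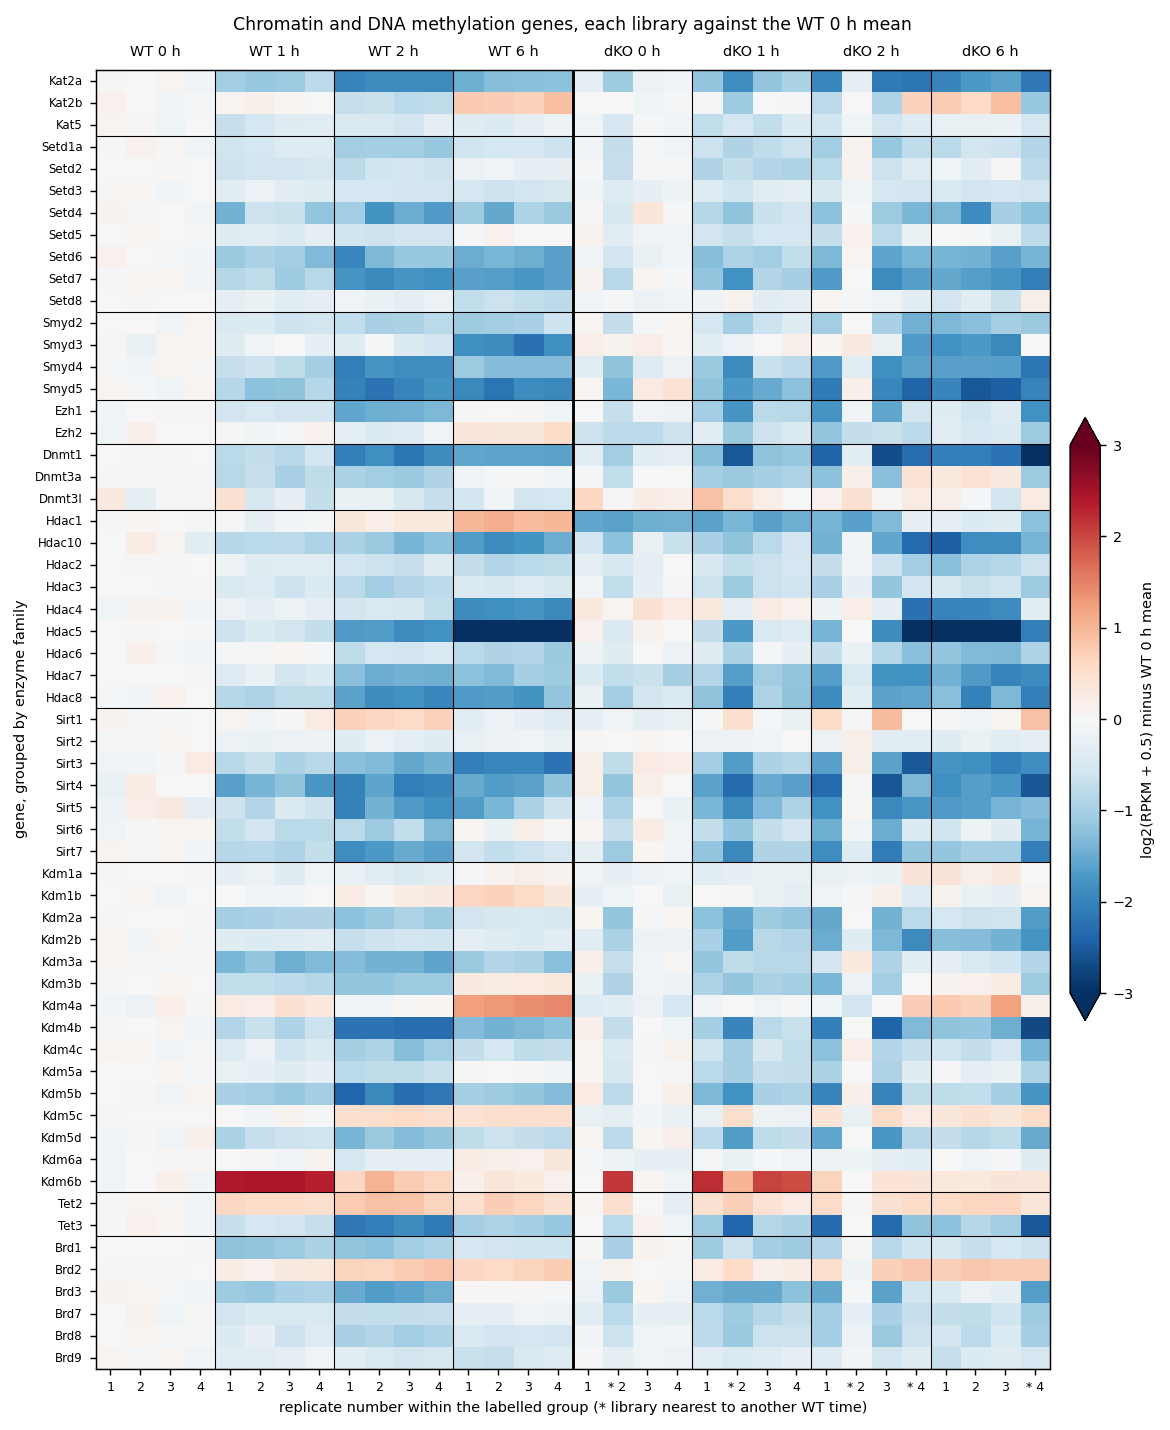
Heat map of 59 of the 60 genes (vertical axis, by family) in the 32 libraries (horizontal axis, by genotype and LPS time), coloured by log2(RPKM + 0.5) minus the mean of the 4 WT libraries at 0 h; an asterisk marks the 5 libraries nearest to another WT time. Hdac1 is low across the dKO libraries, and most genes fall with LPS in both genotypes, with Kdm6b high at 1 h.

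The first comparison was of dKO with WT cells at each LPS time, which asks whether loss of the immunoproteasome subunits changes these regulators. Hdac1, a class I deacetylase, was 2.62- to 2.96-fold lower in dKO libraries at the 4 times, and Ezh2, the Polycomb methyltransferase of dividing cells, was also lower at all 4. Kdm2b, Hdac7, Brd7, Kdm1b and Dnmt1 were lower at some times or on average, and Kdm3a was higher on average. Calls were made at an adjusted p below 0.05, in a limma model of all 11154 genes. At 0 h, 0 of the 60 were called higher and 3 lower (all genes: 0.932% higher and 5.91% lower). At 1 h, 0 were higher and 5 lower (1.84% and 9.02%). At 2 h, 2 were higher and 3 lower (5.15% and 7.24%), and at 6 h 1 was higher and 7 lower (4.55% and 10.2%). Averaged over the 4 times, 2 were higher, of which 1 is Dnmt3l, and 11 lower (7.73% and 23.4%). Every p given beside a gene is this adjusted p. As shares of 60 these counts are near or below those of all genes and are no result about the group. The median log2 difference of the average was -0.11 for these genes and -0.10 for all genes tested. By role, writers had 1 of 20 higher and 2 lower on average, erasers 1 of 33 higher and 8 lower, and readers 0 of 7 higher and 1 lower.

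Without the 5 libraries the spread within groups was smaller and more genes were called. The counts were then 1 higher and 11 lower at 0 h, 3 and 22 at 1 h, 3 and 14 at 2 h, 6 and 21 at 6 h, and 6 and 34 on average. Over all genes the shares rose as well, to 6.75% and 19.4% at 0 h, 9.8% and 29.4% at 1 h, 9.29% and 23.8% at 2 h, 13.9% and 33% at 6 h and 16.4% and 45% on average. Every gene called with all 32 libraries was called in the same direction without the 5, except Kdm5b at 2 h. Brd7, Dnmt1 and Kdm2b then joined Hdac1 and Ezh2 as genes called lower at each of the 4 times, a pattern of 8.51% of all genes (2.21% with all libraries). With the libraries scaled to each other by the median of ratios, 0 were higher and 1 lower at 0 h (all genes 1.79% and 3.07%), 2 and 3 at 1 h (4.19% and 6.27%), 3 and 3 at 2 h (8.55% and 9.73%), 2 and 6 at 6 h (8.22% and 8.02%), and 5 and 6 on average (15.8% and 16.3%). With all libraries, 16 of the 60 genes were called in at least 1 of these comparisons and 44 in none. Single libraries moved these counts: 2 to 5 genes were called at 1 h, with the fewest without dKO replicate 2, 2 to 10 at 2 h, with the fewest without WT replicate 4 and the most without dKO replicate 3, 5 to 9 at 6 h, with the fewest without WT replicate 4, and 10 to 25 on average, with the most without dKO 2 h replicate 2.

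Hdac1 (chr4:129193348-129219890 on mm9) showed the largest genotype difference of the 60. Hdac1 stood at 15.5, 16.7, 16.2 and 15.5 RPKM in WT at 0 h and at 5.08, 4.95, 5.44 and 5.55 in dKO. After 1 h of LPS it stood at 15.2, 12.8, 15.2 and 15.2 against 4.92, 5.87, 4.83 and 5.44, and after 2 h at 20.4, 18.6, 19.6 and 19.6 against 5.73, 4.86, 6.1 and 13.5. At 6 h the WT libraries had 32.2, 34.4, 30.5 and 32.4 RPKM and the dKO libraries 13.1, 12, 12.3 and 6.49. At every time all 4 dKO libraries lay below all 4 WT libraries, including the 5 that lay nearest to another time. The dKO 2 h library at 13.5 and the dKO 6 h library at 6.49 are replicates 4, which lay nearest to WT at 6 h and 2 h, and their Hdac1 levels lie near those of the dKO libraries of these times. The log2 differences were -1.52 ± 0.20 (SE), -1.39 ± 0.20, -1.43 ± 0.20 and -1.56 ± 0.20, with limma adjusted p of 3.09e-06, 9.75e-06, 6.86e-06 and 1.57e-06. On average over the times Hdac1 was 2.78-fold lower in dKO (log2 -1.48 ± 0.10, limma adjusted p = 1.06e-12), and without the 5 libraries the log2 difference was -1.48. The closest relative of Hdac1, Hdac2, differed little, at 15.7 to 16.9 RPKM in WT and 11.6 to 16.2 in dKO at 0 h, with an average log2 difference of -0.18 ± 0.07 that was just called (limma adjusted p = 0.0498) and lost with median-of-ratios scaling (-0.07, adjusted p = 0.401) and without any 1 of 27 libraries. Hdac3, the third member of the class, had an average log2 difference of -0.17 and was not called (adjusted p = 0.119). Without the 5 libraries, Hdac2 and Hdac3 were both called lower in dKO on average, as were 45% of all genes, and Hdac2 also at 1 and 6 h. How reads shared between a gene and a near-identical copy or an overlapping gene were assigned is not given in the sources used here.

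Ezh2 (chr6:47480273-47545029), whose promoter is printed above, encodes the catalytic subunit of Polycomb repressive complex 2. Its levels in WT at 0 h were 11.5, 13.9, 12.4 and 12.4 RPKM against 7.94, 7.04, 7.03 and 7.97 in dKO. The values were 12.8, 11.7, 12.2 and 13.6 against 10.02, 5.52, 7.92 and 9.05 at 1 h, 10.03, 9.32, 9.44 and 11.3 against 5.22, 7.36, 7.62 and 7.02 at 2 h, and 16.3, 15.9, 15.9 and 18.4 against 9.99, 8.69, 9.07 and 5.57 at 6 h. The groups did not overlap at any time. On the log2 scale the differences were -0.70 ± 0.15, -0.63 ± 0.15, -0.54 ± 0.15 and -0.98 ± 0.15 (limma adjusted p = 0.0034, 0.00615, 0.0193 and 4.05e-05). Scaling by the median of ratios ended the calls at 0 and 1 h (-0.50, adjusted p = 0.055, and -0.44, adjusted p = 0.0603). The call at 2 h was lost without WT replicate 4 (-0.48, adjusted p = 0.0735) or without dKO replicate 1 (-0.42, adjusted p = 0.0646). Ezh1, its relative in resting cells, was not called at any time, and its average log2 difference was -0.27 ± 0.14 (limma adjusted p = 0.159), -0.26 without the 5 libraries (adjusted p = 8.82e-07).

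Kdm2b (chr5:123320685-123439101) encodes a demethylase that binds unmethylated CpG islands and recruits a Polycomb complex. It stood at 8.11, 7.33, 8.27 and 7.42 RPKM in WT and 6.1, 3.8, 6.78 and 6.96 in dKO at 0 h, where it was not called (log2 -0.40, limma adjusted p = 0.332). With LPS, the pairs of groups were 5.89, 5.71, 5.82 and 6.04 against 3.7, 2.1, 4.17 and 4.02 at 1 h, 4.61, 4.9, 5.03 and 4.97 against 2.44, 5.89, 2.75 and 1.69 at 2 h, and 6.23, 5.96, 5.75 and 6.07 against 2.93, 2.86, 2.59 and 1.93 at 6 h. The groups were apart at 0, 1 and 6 h. At 2 h the single dKO library at 5.89, replicate 2, which lay nearest to WT at 0 h, was above all WT libraries. The log2 differences were -0.71 ± 0.22 at 1 h, -0.66 ± 0.22 at 2 h and -1.09 ± 0.22 at 6 h (limma adjusted p = 0.0346, 0.0467 and 0.000873). The calls at 1 and 2 h were each lost without any 1 of several libraries, most without dKO 1 h replicate 2 (-0.51, adjusted p = 0.187) and without dKO 2 h replicate 4 (-0.45, adjusted p = 0.159). On average Kdm2b was 1.64-fold lower in dKO (log2 -0.72 ± 0.11, limma adjusted p = 7.73e-06; -0.63 without the 5 libraries). Its close relative Kdm2a was not called on average (-0.21 ± 0.13, adjusted p = 0.258). Without the 5 libraries Kdm2a was called lower in dKO on average and at 1 and 2 h.

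Hdac7 (chr15:97623124-97674933), a class IIa deacetylase, was among the lowest of the family. It stood at 2.86, 2.87, 2.86 and 2.71 RPKM in WT and 2, 1.5, 1.6 and 1.18 in dKO at 0 h, and at 2.05, 2.39, 1.79 and 1.99 against 1.3, 0.554, 1.11 and 0.969 at 1 h. The values at 2 h were 0.892, 0.694, 0.755 and 0.712 against 0.556, 1.92, 0.457 and 0.447, and at 6 h 0.926, 0.832, 1.18 and 1.08 against 0.742, 0.529, 0.333 and 0.401. All dKO libraries lay below all WT libraries at 0, 1 and 6 h, and at 2 h 1 dKO library, replicate 2, lay above. It was called at 0 h (log2 -0.70 ± 0.21, limma adjusted p = 0.0454) and 1 h (-0.81 ± 0.21, adjusted p = 0.0124) and on average (-0.53 ± 0.11, adjusted p = 0.000272). The call at 0 h was lost without any 1 of 7 of its 8 libraries, with adjusted p up to 0.132 without dKO replicate 4, and that at 1 h without dKO replicate 2 (-0.65, adjusted p = 0.0729). The other class IIa genes went differently: Hdac4 had average differences of 0.21 and Hdac5 of 0.06, neither called, while without the 5 libraries Hdac4 was called higher in dKO at 0, 1 and 2 h (log2 0.33, 0.45 and 0.32).

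**Figure D2:**
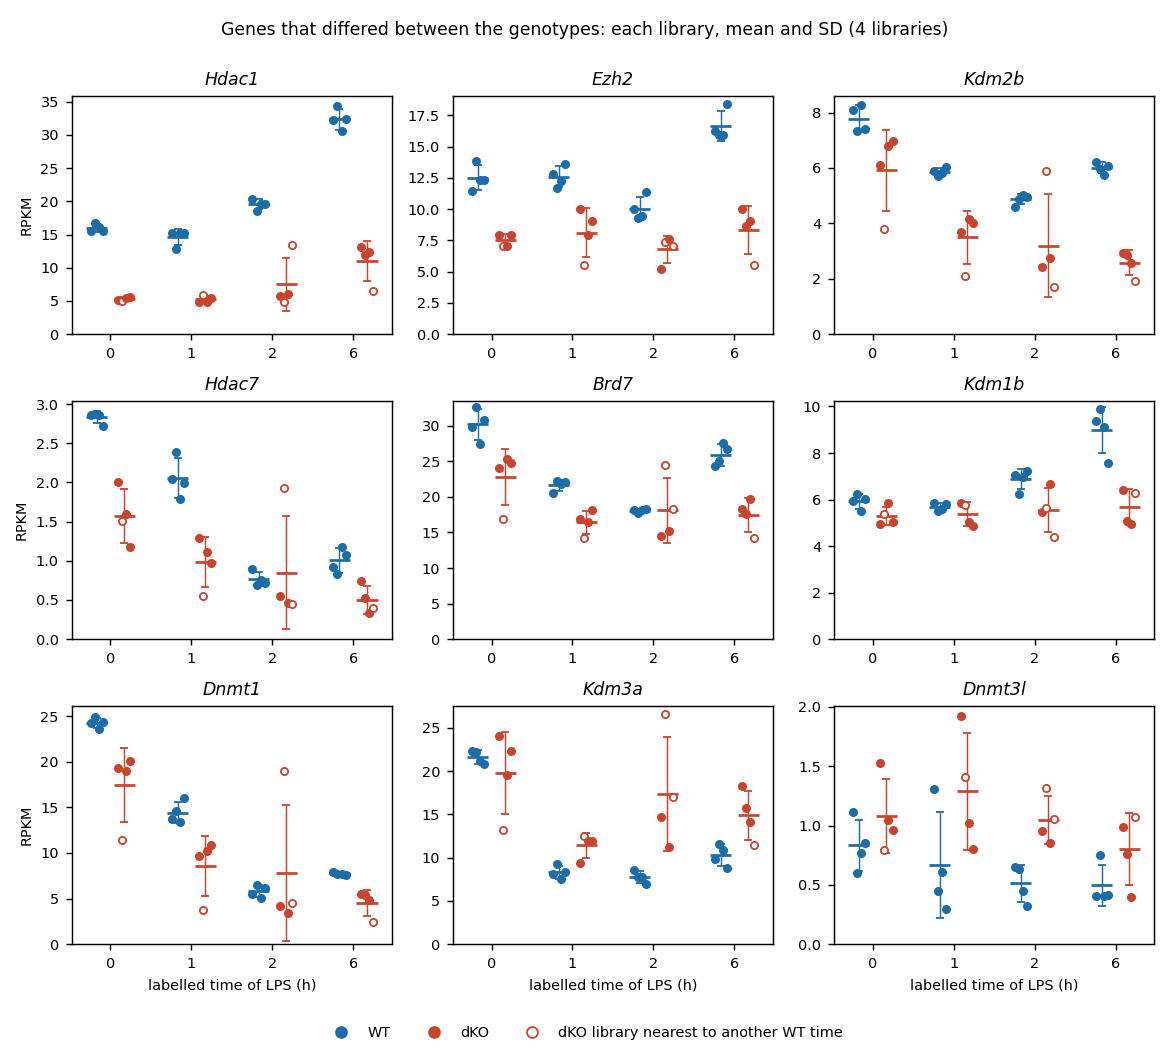
RPKM (vertical axes) of Hdac1, Ezh2, Kdm2b, Hdac7, Brd7, Kdm1b, Dnmt1, Kdm3a and Dnmt3l at 0, 1, 2 and 6 h of LPS (horizontal axes), 1 point per library, with the mean and SD of the 4 libraries of each WT or dKO group; open circles are the 5 libraries nearest to another WT time. In Hdac1 and Ezh2 no dKO point reaches the WT points of the same time, whereas in Kdm3a the dKO points at 2 h, 11.2 to 26.6, lie above all WT points.

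Brd7 (chr8:90856210-90886090), a bromodomain subunit of a SWI/SNF remodelling complex, stood at 29.9, 32.6, 27.4 and 30.8 RPKM in WT and 24, 16.9, 25.3 and 24.7 in dKO at 0 h. Its values were 20.5, 22.2, 21.8 and 22.1 against 16.9, 14.2, 16.5 and 18.1 at 1 h, 18.1, 17.7, 18.1 and 18.3 against 14.5, 24.5, 15.2 and 18.3 at 2 h, and 24.3, 25, 27.5 and 26.7 against 18.3, 17.6, 19.7 and 14.2 at 6 h. The groups overlapped at 2 h alone. It was called at 6 h (log2 -0.56 ± 0.13, limma adjusted p = 0.00388) and on average (-0.35 ± 0.07, adjusted p = 0.000141). Kdm1b (chr13:47138908-47179982), a flavin-dependent demethylase, stood at 9.37, 9.87, 9.11 and 7.57 RPKM in WT and 6.43, 5.07, 4.93 and 6.27 in dKO at 6 h, with no overlap (log2 -0.62 ± 0.12, limma adjusted p = 0.00037). At the earlier times its levels were 5.96, 6.23, 5.5 and 6.01 against 4.95, 5.38, 5.83 and 5.04 at 0 h, 5.84, 5.5, 5.6 and 5.82 against 5.86, 5.78, 5.03 and 4.86 at 1 h and 7.04, 6.24, 6.97 and 7.23 against 5.46, 5.63, 6.68 and 4.41 at 2 h, and it was not called at any of them. Its average difference of -0.29 ± 0.06 (adjusted p = 0.000294) was lost with median-of-ratios scaling (-0.18, adjusted p = 0.0943).

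Dnmt1 (chr9:20711650-20764332), which copies CpG methylation after replication, stood at 24.2, 24.9, 23.6 and 24.3 RPKM in WT and 19.3, 11.5, 19 and 20.1 in dKO at 0 h, and at 7.95, 7.74, 7.72 and 7.57 against 5.5, 5.34, 4.84 and 2.48 at 6 h. At both times the groups were apart, yet it was called on average alone (log2 -0.50 ± 0.17, limma adjusted p = 0.0224); without the 5 libraries it was called at each time. The other genes lower on average were Kdm4a (-0.33 ± 0.09, adjusted p = 0.00525), a demethylase of histone H3, Hdac6 (-0.25 ± 0.09, adjusted p = 0.034) and Kdm6a (-0.13 ± 0.05, adjusted p = 0.038). With median-of-ratios scaling these 3 were not called (Kdm4a -0.21, Hdac6 -0.15 and Kdm6a -0.01). Kdm4a at 6 h (log2 -0.63 ± 0.18, limma adjusted p = 0.0169) was lost without dKO replicate 4 (-0.45, adjusted p = 0.106) or WT replicate 4 (-0.60, adjusted p = 0.0545). Kdm6a at 6 h (-0.35 ± 0.09, adjusted p = 0.0105) was likewise lost without the dKO replicate 4 (-0.27, adjusted p = 0.0572) or the WT replicate 4 (-0.31, adjusted p = 0.0525). Kdm5a at 1 h (-0.53 ± 0.17, adjusted p = 0.0456) was lost without any 1 of the 8 libraries compared, with adjusted p up to 0.148, while without the 5 libraries it was called at -0.47 (adjusted p = 1.43e-06).

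The genes with more transcript in dKO were fewer. Kdm3a (chr6:71538966-71582899), a demethylase of histone H3 that is induced by low oxygen, stood at 8.52, 7.74, 7.79 and 6.94 RPKM in WT and 14.6, 26.6, 11.2 and 17 in dKO at 2 h. All 4 dKO libraries were above all WT libraries (log2 1.05 ± 0.19, limma adjusted p = 0.000223), and without the 5 libraries the difference was 0.69 (adjusted p = 0.000115). The highest dKO values, 26.6 and 17, are replicates 2 and 4, nearest to WT at 0 h and 6 h. In a fit to the 2 groups alone the call was lost (adjusted p = 0.0865). At 0 h the levels were 22.4, 22.2, 21.2 and 20.8 against 24.1, 13.2, 19.6 and 22.3, at 1 h 8.11, 9.26, 7.48 and 8.37 against 9.32, 12.5, 12 and 11.9 and at 6 h 9.79, 11.6, 10.9 and 8.85 against 18.3, 15.7, 14.1 and 11.5. It was not called at those times with all libraries, and its average difference was 0.46 ± 0.09 (adjusted p = 0.000324; 0.43 without the 5). Dnmt3l (chr10:77505032-77526360), just inside the threshold on level, stood at 0.647, 0.633, 0.446 and 0.323 RPKM in WT and 0.951, 1.32, 0.854 and 1.06 in dKO at 2 h. Its average log2 difference was 0.47 (0.42 without the 5), in the direction that the level threshold favours. Kdm5b (chr1:136456755-136529455), another demethylase, was called higher at 2 h (1.04 ± 0.32, adjusted p = 0.0301), where WT had 0.838, 1.3, 0.916 and 1.07 RPKM and dKO 1.27, 7.22, 1.24 and 3.58. That difference lay in replicates 2 and 4, both among the 5 libraries: without the 5 it was 0.20 (adjusted p = 0.222). It was also lost without any 1 of 5 single libraries, of which dKO replicate 2 moved it furthest (0.61, adjusted p = 0.14). Setd8, the methyltransferase of histone H4 in dividing cells, was called higher at 6 h (0.39 ± 0.12, adjusted p = 0.031), from 17.4, 18.6, 17.3 and 16.7 RPKM in WT and 19.98, 23.1, 18.2 and 33.2 in dKO, and was lost without any 1 of 5 libraries, among them dKO replicate 4 (0.21, adjusted p = 0.197). Without all 5 libraries nearest to another time, Setd8 was called at 0.21 (adjusted p = 0.00985).

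**Figure D3:**
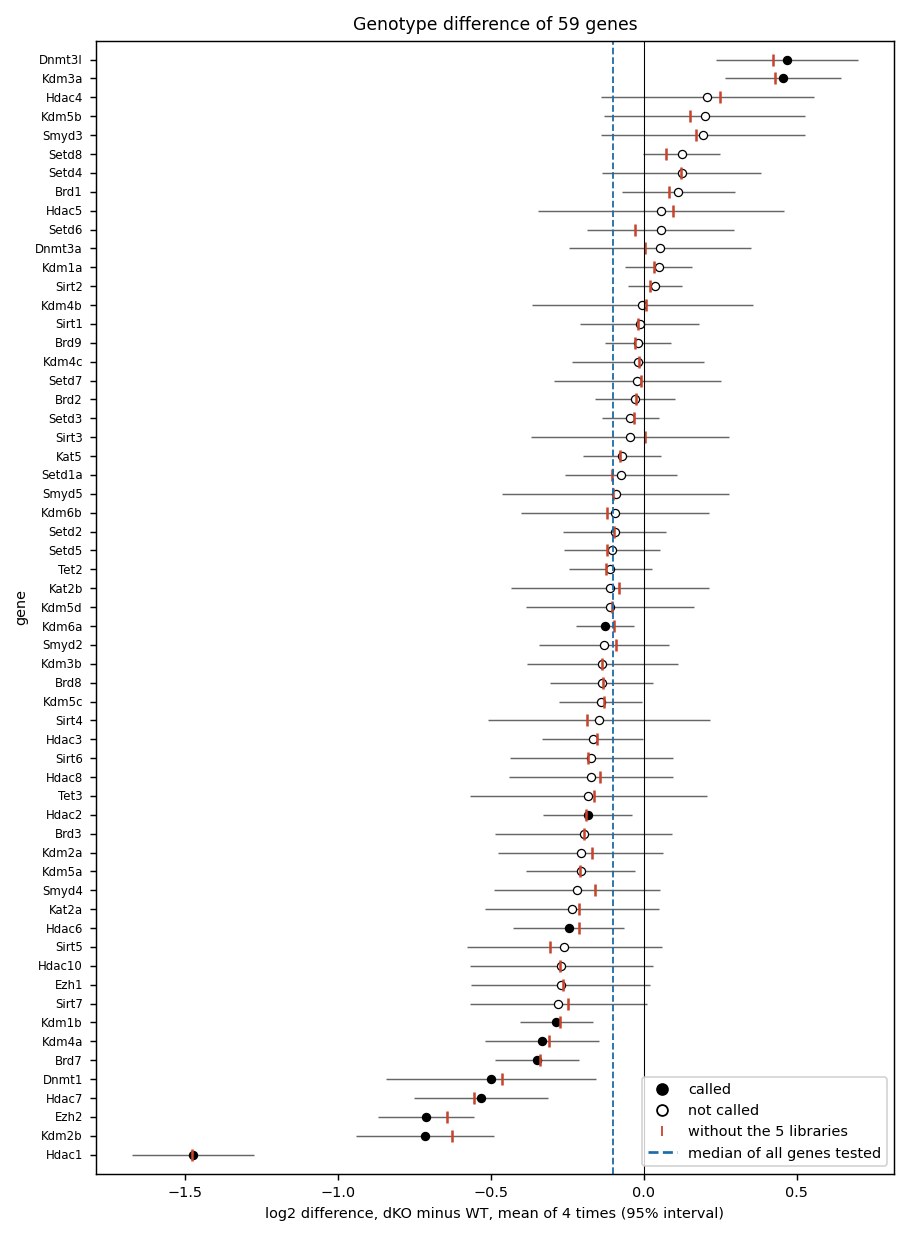
Log2 difference of dKO minus WT, averaged over the 4 LPS times (horizontal axis), for 59 of the 60 genes (vertical axis), with 95% intervals from the limma model; filled points were called, red ticks are the values without the 5 libraries and the dashed line is the median of all genes tested. Hdac1 lies furthest to the left at -1.48, and the filled points on the right are Kdm3a and Dnmt3l. Only Dnmt3l passed the level threshold through dKO libraries, and its point is to be read as a value with no test.

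Genes that work with these enzymes were taken from fixed lists. Of 27 tested Polycomb partners, 3 were called higher and 11 lower on average (all genes: 7.73% and 23.4%), among them Eed (-0.53, limma adjusted p = 0.000385), a core subunit of the complex of Ezh2, and Aebp2 (-0.43, adjusted p = 0.000568). Of 18 readers of DNA methylation and repair genes, 0 were higher and 3 lower. The most significant were Apobec3, a cytidine deaminase (-2.32, adjusted p = 9.54e-11), and Uhrf1, which brings Dnmt1 to hemimethylated DNA (-1.07, adjusted p = 4.15e-07). Of 21 deacetylase corepressors, 3 were higher and 8 lower, with Gatad2a at -0.35 and Tbl1xr1 at 0.30. Other lysine methyltransferases had 0 of 21 higher and 4 lower, with Suv39h2 (-0.50) and Suv39h1 (-0.41) first by adjusted p. SWI/SNF and other remodellers had 0 of 28 higher and 7 lower, other acetyltransferases 1 of 15 higher and 2 lower, arginine methyltransferases 1 of 8 higher and 2 lower, and other JmjC demethylases 0 of 12 higher and 2 lower.

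Cell cycle genes moved with genotype in the same libraries. Of 27 tested, 9, 14, 5 and 3 were called lower in dKO at 0, 1, 2 and 6 h and 23 on average, and 0 were higher in any of these comparisons. Of all genes, 5.91%, 9.02%, 7.24% and 10.2% were lower at these times and 23.4% on average, so the count at 6 h is near that share. Without the 5 libraries, 26, 26, 19 and 19 were lower (all genes: 19.4%, 29.4%, 23.8% and 33%). Their summed level was 387 to 467 RPKM in WT and 222 to 299.6 in dKO at 0 h. Granulocyte markers were lower in dKO as well: neutrophil and precursor markers summed to 418 to 1264 RPKM in WT and 204 to 446 in dKO, with 6 of 8 called lower on average, and eosinophil, mast cell and basophil markers to 413 to 1316 against 216 to 557, with 6 of 8 called lower. Of 10 dendritic cell markers 8 were lower on average, and of 9 macrophage markers 5 were higher and 1 lower. The shares of all genes beside these marker counts are 7.73% higher and 23.4% lower on average. The spike-in controls took 0.133 to 0.328% of the aligned signal in WT libraries and 0.0943 to 0.127% in dKO libraries, with no overlap. The part of these differences in the results for Hdac1, Ezh2, Dnmt1 and the other genes was not tested. In bulk RNA from whole cultures, fewer cells of a type and less RNA per cell cannot be told apart.

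The second comparison followed the 60 genes through LPS in WT cells. Most fell, and a few rose with distinct timing. Kdm6b, the demethylase of the Polycomb methyl mark, rose 5.26-fold within 1 h, the DNA dioxygenase Tet2 rose at every time, the BET reader Brd2 and the demethylase Kdm5c rose at 2 and 6 h, and Kdm4a and Hdac1 rose at 6 h. The class IIa deacetylase Hdac5 fell 10.3-fold by 6 h. At 1 h against 0 h, 2 of 60 were called higher and 30 lower (all genes: 6.84% and 45.5%). At 2 h, 5 were higher and 47 lower (11.2% and 68.5%), and at 6 h 9 were higher and 34 lower (14.9% and 60.9%). The share called lower is again close to that of all genes. The 5 libraries are dKO libraries but enter the shared estimate of spread, and without them the counts higher and lower in WT were 4 and 47 at 1 h (11% and 68.7%), 7 and 51 at 2 h (14.3% and 74.9%) and 11 and 40 at 6 h (18.6% and 69.6%). By role, writers had 0 of 20 higher and 12 lower at 1 h, 0 and 16 at 2 h, and 2 and 13 at 6 h. Erasers had 2 of 33 higher and 12 lower at 1 h, 4 and 25 at 2 h, and 6 and 18 at 6 h, and readers 0 of 7 higher and 6 lower, 1 and 6, and 1 and 3.

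On the RPKM scale the median of all genes shifted with LPS, by -0.42, -0.73 and -0.65 (log2) at 1, 2 and 6 h in WT, and the medians of the 60 genes were -0.47, -0.98 and -0.55. Median-of-ratios scaling takes that shift out. It called 8 higher and 6 lower at 1 h (all genes 15.2% and 13.1%), 16 and 26 at 2 h (30.7% and 31.1%), and 23 and 19 at 6 h (32.6% and 33.8%). All the genes called higher on the RPKM scale were also called higher with this scaling. Brd9, Kat5, Kdm1a, Kdm6a, Setd3 and Sirt2 at 2 h, and Kat5 and Sirt2 at 6 h, were called lower on the RPKM scale and higher relative to the median gene. A named gene of the 60 said to have fallen was called lower under both scalings unless the text says otherwise. By role the counts with this scaling were 1 higher and 3 lower writers at 1 h, 4 and 9 at 2 h, and 7 and 8 at 6 h. Those of erasers were 6 and 2, 10 and 14, and 12 and 11, and those of readers 1 and 1, 2 and 3, and 4 and 0.

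**Figure D4:**
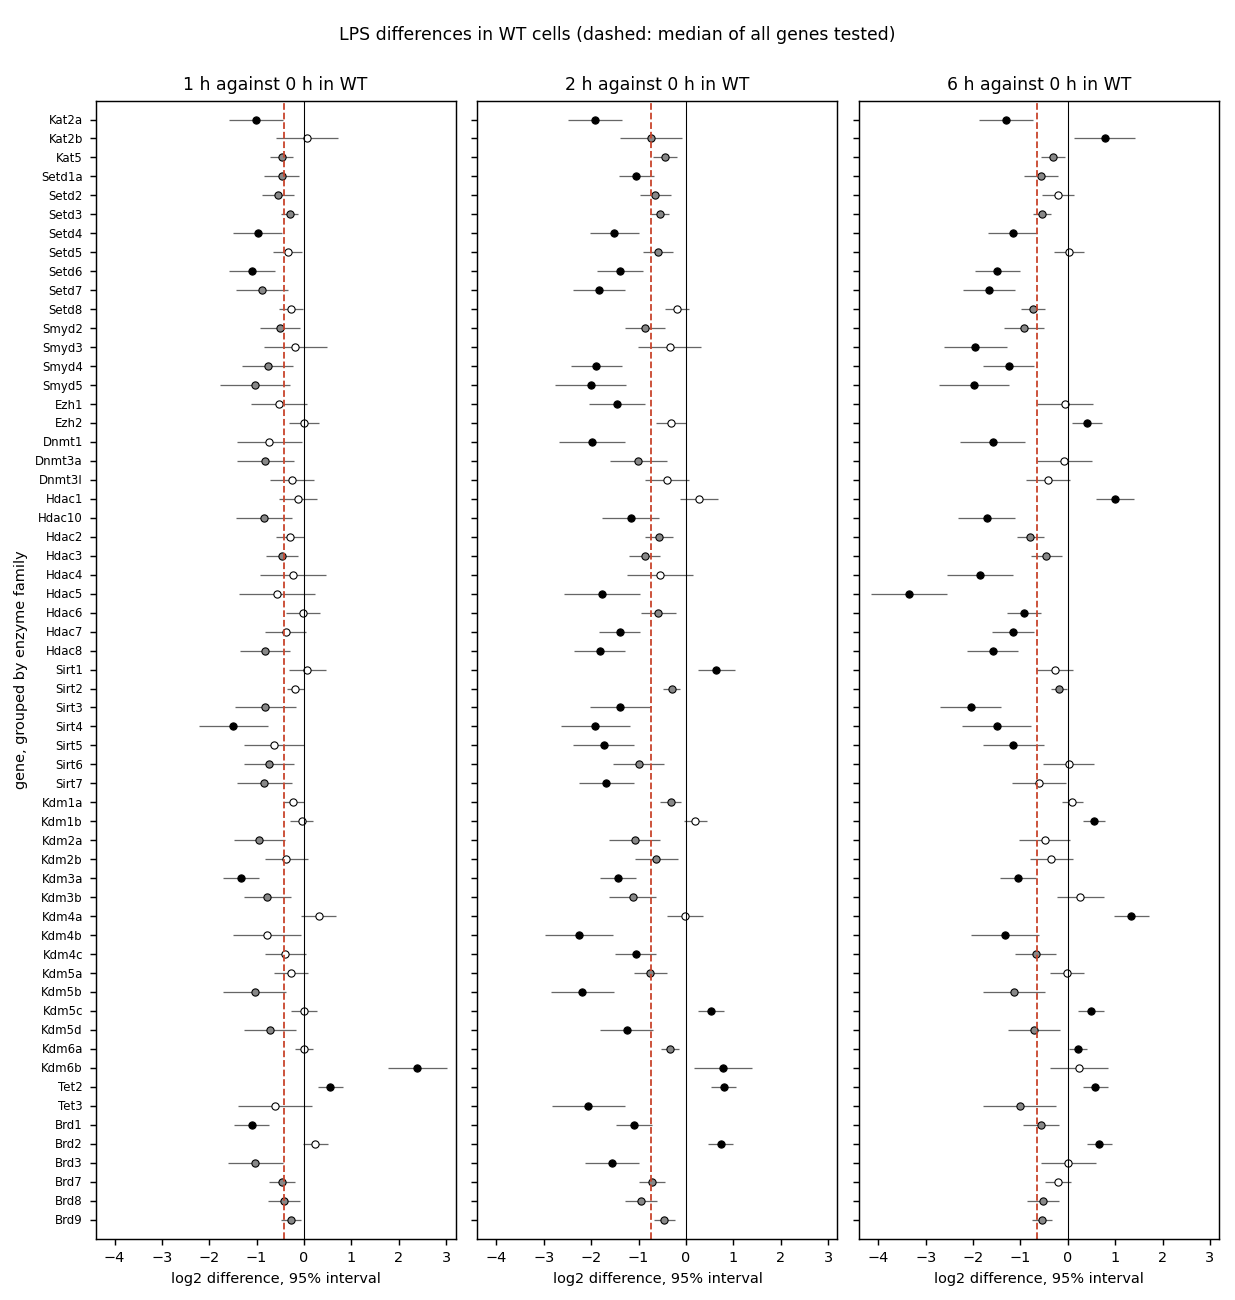
Log2 differences at 1, 2 and 6 h of LPS against 0 h in WT cells (horizontal axes) for 59 of the 60 genes (vertical axis), with 95% intervals from the limma model; black points were called in the same direction under both scalings, grey points on the RPKM scale but not so with median-of-ratios scaling, and white points were not called. The dashed lines are the medians of all genes tested, and Kdm6b at 1 h and Hdac5 at 6 h lie furthest from 0. The points of Setd4, Smyd4, Hdac10, Hdac7, Sirt4 and Sirt5, whose fall the level threshold favours, are to be read as values with no test.

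Kdm6b (chr11:69212020-69227177) gave the sharpest response. It rose from 7.75, 8.26, 9.09 and 7.75 RPKM at 0 h to 45.3, 46.3, 46.3 and 43.2 at 1 h, and stood at 12.9, 17.5, 14.3 and 13.2 at 2 h and 9.15, 10.7, 10.1 and 9.08 at 6 h. The log2 difference from 0 h was 2.40 ± 0.30 at 1 h (limma adjusted p = 8.89e-06) and 0.78 ± 0.30 at 2 h (adjusted p = 0.0204), and at 6 h it was not called (0.23, adjusted p = 0.479). In dKO the levels were 8.21, 37.2, 8.52 and 7.42 at 0 h and 40.1, 17.1, 35.2 and 33.1 at 1 h (1.30 ± 0.30, adjusted p = 0.00517). The dKO 0 h library at 37.2 is replicate 2, nearest to WT at 1 h, and without the 5 libraries the dKO rise was 2.10 (adjusted p = 1.95e-15). Its relative Kdm6a, on the X chromosome, rose by a smaller step, from 11.1, 11.7, 11.9 and 12.1 RPKM at 0 h to 13.7, 13.4, 12.7 and 14.9 at 6 h in WT (0.22 ± 0.09, limma adjusted p = 0.0382).

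Tet2 (chr3:133126641-133207354) stood at 16.1, 17.3, 17 and 15.4 RPKM at 0 h, 25.7, 24.2, 24.4 and 23.2 at 1 h, 28.3, 30.7, 30.2 and 26.6 at 2 h and 23.6, 27.6, 25.9 and 22.6 at 6 h in WT. Every LPS library was above every library at 0 h (log2 0.55 ± 0.13, 0.80 ± 0.13 and 0.58 ± 0.13; limma adjusted p = 0.00197, 1.24e-05 and 0.000301). Tet3 (chr6:83312368-83391672) went the other way, from 11.8, 13.3, 12.8 and 11.1 RPKM at 0 h to 2.37, 2.52, 2.93 and 2.44 at 2 h (log2 -2.06 ± 0.38, adjusted p = 3.46e-05) and 5.78, 6.2, 5.9 and 5.32 at 6 h. At 6 h its fall (-1.02, adjusted p = 0.0176) was not called with median-of-ratios scaling (-0.36, adjusted p = 0.303). In dKO, Tet2 rose by log2 0.39, 0.33 and 0.47 (limma adjusted p = 0.0202, 0.0309 and 0.00229).

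Brd2 (chr17:34248964-34259552), a BET reader of acetylated histones, rose in WT from 52.1, 52.2, 54.8 and 53.9 RPKM at 0 h to 85.6, 83, 90.2 and 96.9 at 2 h and 82.4, 81.2, 85.4 and 90.1 at 6 h (log2 0.73 ± 0.13 and 0.66 ± 0.13, limma adjusted p = 2.2e-05 and 5.29e-05). Its relative Brd3 (chr2:27301101-27331193) fell from 8.38, 8.11, 7.47 and 7.33 to 3.44, 3.29, 3.72 and 3.88 at 1 h (-1.03 ± 0.28, adjusted p = 0.00524; -0.57 and not called with median-of-ratios scaling, adjusted p = 0.0518) and 2.44, 2.12, 2.25 and 2.49 at 2 h (-1.56 ± 0.28, adjusted p = 2.92e-05), and stood at 7.96, 8.07, 8.04 and 7.44 at 6 h. At 6 h Brd3 was not called against 0 h (0.01), and with median-of-ratios scaling it was called higher (0.65). Brd1 (chr15:88517465-88564649), a scaffold of an acetyltransferase complex, fell within 1 h from 16.7, 16.6, 16.5 and 16 to 6.82, 7.13, 7.45 and 8.25 (-1.10 ± 0.18, adjusted p = 0.000118) and stood at 6.95, 6.71, 7.77 and 8.42 at 2 h (-1.10 ± 0.18, adjusted p = 1.29e-05).

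**Figure D5:**
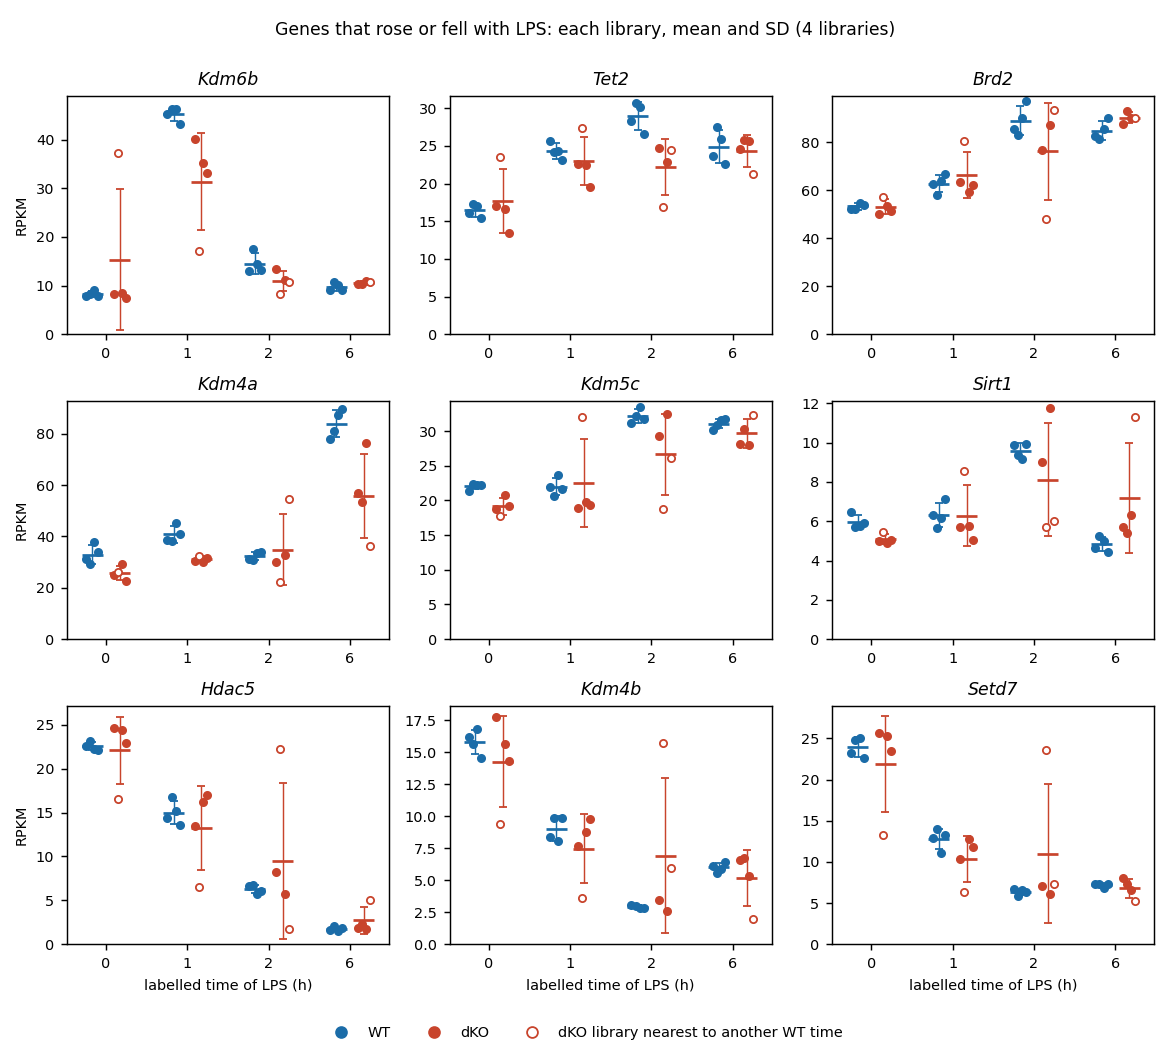
RPKM (vertical axes) of Kdm6b, Tet2, Brd2, Kdm4a, Kdm5c, Sirt1, Hdac5, Kdm4b and Setd7 at 0, 1, 2 and 6 h of LPS (horizontal axes), 1 point per library, with the mean and SD of each WT or dKO group; open circles are the 5 libraries nearest to another WT time. In WT, Kdm6b peaks at 1 h, Sirt1 at 2 h and Kdm4a at 6 h, and the WT points of Hdac5 at each later time lie below those of the time before.

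Sirt1 and Kdm5c were the other genes called higher at 2 h. Sirt1 (chr10:62781753-62801780), a nuclear deacetylase that uses NAD, stood at 6.46, 5.69, 5.77 and 5.93 RPKM at 0 h, 9.87, 9.37, 9.16 and 9.95 at 2 h (0.64 ± 0.19, limma adjusted p = 0.00337) and 4.66, 5.26, 4.98 and 4.44 at 6 h. Kdm5c (chrX:148667773-148708897), an X-linked demethylase of the promoter mark on histone H3, stood at 21.4, 22.4, 22.2 and 22.2 at 0 h, 31.2, 32.2, 33.5 and 31.7 at 2 h (0.53 ± 0.13, adjusted p = 0.000785) and 30.2, 30.9, 31.6 and 31.7 at 6 h (0.49 ± 0.13, adjusted p = 0.00193). Its partner on the Y chromosome, Kdm5d (chrY:234231-280254), fell over the same time, from 6.24, 6.74, 6.17 and 7.38 to 2.21, 2.77, 2.38 and 2.62 at 2 h (-1.25 ± 0.27, adjusted p = 0.000173). The autosomal relative Kdm5b fell from 6.4, 6.53, 5.91 and 6.84 to 3.02, 2.88, 2.65 and 2.89 at 1 h (-1.04, adjusted p = 0.0105), 0.838, 1.3, 0.916 and 1.07 at 2 h (-2.18 ± 0.32, adjusted p = 5.62e-06) and 2.98, 2.79, 2.59 and 2.31 at 6 h (-1.13, adjusted p = 0.0026). With median-of-ratios scaling the 2 h call stood and those at 1 h (-0.60, adjusted p = 0.071) and 6 h (-0.51, adjusted p = 0.0717) did not.

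Kdm4a (chr4:117809609-117852648) was the main late gene. In WT it stood at 31.1, 29.2, 37.8 and 33.8 RPKM at 0 h, 38.8, 38.1, 45.4 and 41.1 at 1 h, 31, 30.9, 33.6 and 34.1 at 2 h and 78.1, 81, 87.3 and 89.5 at 6 h, where every library was more than any at an earlier time (2.53-fold, log2 1.34 ± 0.18, limma adjusted p = 5.7e-07). In dKO it rose by 1.05 ± 0.18 at 6 h (adjusted p = 1.84e-05), from 25.1, 26.2, 29.2 and 22.8 to 56.8, 53.5, 76.4 and 36.4 RPKM. The related Kdm4b (chr17:56465473-56542296) instead fell from 16.2, 15.6, 16.8 and 14.6 at 0 h to 3.04, 3, 2.84 and 2.82 at 2 h (4.76-fold, log2 -2.25 ± 0.35, limma adjusted p = 8.28e-06). This was the lowest log2 difference of the 60 genes at that time. By the ratio of mean RPKM in WT, Kdm4b fell 5.41-fold, less than Smyd4 (10.7-fold), Kdm5b (6.23-fold) and Sirt4 (5.82-fold). Kdm4b stood at 6.14, 5.59, 5.87 and 6.41 at 6 h (-1.33, adjusted p = 0.00147). Kdm4c (chr4:73888401-74051768) fell from 8.42, 8.3, 7.47 and 7.79 to 3.79, 4, 3 and 3.62 at 2 h (-1.06 ± 0.21, adjusted p = 7.98e-05). Of these 3 relatives, Kdm4b and Kdm4c thus fell at 2 h, whereas Kdm4a rose at 6 h. Of the other demethylases, Kdm1b rose at 6 h from 5.96, 6.23, 5.5 and 6.01 to 9.37, 9.87, 9.11 and 7.57 (0.56 ± 0.12, adjusted p = 0.000121). Kdm3a fell within 1 h from 22.4, 22.2, 21.2 and 20.8 to 8.11, 9.26, 7.48 and 8.37 (-1.33 ± 0.19, adjusted p = 2.93e-05) and remained at 6.94 to 8.52 at 2 h and 8.85 to 11.6 at 6 h (-1.43 and -1.04). Kdm2a (chr19:4316147-4397077) fell from 25.6, 25.2, 24.7 and 24.2 to 10.3, 11.3, 12.9 and 11.6 at 2 h (-1.09 ± 0.26, adjusted p = 0.000616) and Kdm3b (chr18:34936662-34999024) from 22, 22.6, 23.7 and 22.3 to 9.76, 9.79, 10.6 and 10.4 (-1.12 ± 0.24, adjusted p = 0.000174). Neither was called with median-of-ratios scaling (-0.31, adjusted p = 0.137, and -0.35, adjusted p = 0.136).

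Of the 9 deacetylases, 1 was called higher and 8 lower at 6 h in WT on the RPKM scale (all genes: 14.9% and 60.9%). The genes called lower include Hdac7 and Hdac10, whose fall the level threshold favours, and the counts are too small to set the family apart. Class I Hdac1 rose in WT from 15.5 to 16.7 RPKM at 0 h to 30.5 to 34.4 at 6 h (2-fold, log2 0.996 ± 0.20, limma adjusted p = 6.11e-05), and in dKO by 0.95 ± 0.20 (adjusted p = 0.000123), from a lower level. The difference between these responses was -0.05 with a 95% half-width of 0.57. Its class I relatives were called lower, Hdac2 by -0.79 and Hdac3 by -0.45 (adjusted p = 2.25e-05 and 0.0136), and neither was called with median-of-ratios scaling (-0.13 and 0.22). Class IIa Hdac5 (chr11:102057061-102091486) stood at 22.6, 23.2, 22.3 and 22.2 RPKM at 0 h, 14.4, 16.8, 15.2 and 13.6 at 1 h, where it was not called (-0.58, adjusted p = 0.21), 6.59, 6.74, 5.68 and 6.06 at 2 h and 1.57, 2.07, 1.56 and 1.83 at 6 h. No group overlapped with the next. Its log2 difference was -1.77 ± 0.39 at 2 h and -3.36 ± 0.39 at 6 h (limma adjusted p = 0.000247 and 1.07e-07), and -2.91 ± 0.39 at 6 h in dKO (adjusted p = 6.05e-06). Hdac4 (chr1:93829332-94044970) fell late, from 7.26, 8.74, 8.74 and 7.57 at 0 h to 1.8, 1.91, 2 and 1.73 at 6 h (-1.86 ± 0.34, adjusted p = 2.58e-05). Hdac7 stood at 2.71 to 2.87 at 0 h, 0.694 to 0.892 at 2 h and 0.832 to 1.18 at 6 h (-1.40 and -1.15, with no test). Hdac8 (chrX:99479979-99700487), an X-linked class I enzyme that acts on cohesin, fell from 4.05, 3.89, 4.61 and 4.17 to 1.03, 0.757, 0.822 and 0.707 at 2 h (-1.82 ± 0.26, adjusted p = 4.72e-06) and 0.935, 0.96, 0.851 and 1.56 at 6 h (-1.59). Hdac10 (chr15:88953733-88959130), a polyamine deacetylase near the level threshold, went from 2.23, 2.71, 2.41 and 1.68 to 0.919, 0.754, 0.548 and 0.672 at 2 h (-1.17) and 0.361, 0.231, 0.288 and 0.469 at 6 h (-1.71), with no test. At such low levels a difference of log2(RPKM + 0.5) understates the fold.

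Among the sirtuins, 0 were called higher and 4 of 7 lower at 1 h (all genes: 6.84% and 45.5%), 1 and 6 at 2 h (11.2% and 68.5%), and 0 and 4 at 6 h (14.9% and 60.9%), counts too small to set the family apart. Under median-of-ratios scaling these counts were 1 and 1, 2 and 4, and 2 and 3. Sirt3, Sirt4 and Sirt5 are the mitochondrial members. Sirt4 and Sirt5 reached 1 RPKM in all 8 libraries at 0 h and in 4 at 2 and 6 h together. Among those 4 is dKO 2 h replicate 2 (3.71 and 3.32 RPKM), which lay nearest to WT at 0 h. The level threshold thus favours a fall of Sirt4 and Sirt5, which stay in the counts and are given with no test. Sirt3 (chr7:148049631-148068208) went from 6.92, 7.07, 7.17 and 8.94 RPKM at 0 h to 2.83, 2.71, 2.25 and 2.51 at 2 h (-1.38) and 1.41, 1.56, 1.54 and 1.21 at 6 h (-2.05 ± 0.32, limma adjusted p = 3.1e-06). Sirt4 (chr5:115928019-115934493) went within 1 h from 3.25, 4.61, 3.91 and 3.91 to 0.924, 1.16, 1.4 and 0.805 (-1.50), and stood at 0.571, 0.96, 0.552 and 0.613 at 2 h and 1.05, 0.879, 0.942 and 1.39 at 6 h (-1.92 and -1.50). Sirt5 (chr13:43466085-43490572) went from 2.85, 3.78, 4.02 and 2.56 to 0.425, 0.913, 0.658 and 0.553 at 2 h (-1.74) and 0.678, 0.943, 1.44 and 1.96 at 6 h (-1.15). In none of these did a 2 h library reach the 0 h libraries. Sirt7 (chr11:120479686-120486316), a nucleolar deacetylase, fell from 43.1, 38.6, 42.3 and 38.1 to 10.7, 11.9, 13.9 and 12.8 at 2 h (-1.68 ± 0.28, adjusted p = 1.43e-05) and stood at 27.7, 23.9, 25.6 and 28.5 at 6 h.

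Of the DNA methyltransferases, Dnmt1 stood in WT at 24.2, 24.9, 23.6 and 24.3 RPKM at 0 h and 13.7, 14.5, 13.4 and 16 at 1 h, which was not called (-0.73, adjusted p = 0.0658). It fell to 5.51, 6.45, 5.02 and 6.16 at 2 h and 7.95, 7.74, 7.72 and 7.57 at 6 h (log2 -1.98 ± 0.34 at 2 h and -1.59 ± 0.34 at 6 h, limma adjusted p = 1.51e-05 and 0.000146). Dnmt3a (chr12:3806980-3914443) fell for a time, from 10.6, 10.7, 10.2 and 9.94 at 0 h to 5.14, 4.76, 4.51 and 5.3 at 2 h (-1.001 ± 0.29, adjusted p = 0.00291), and stood at 9.48, 9.94, 10.1 and 9.37 at 6 h, which was not called against 0 h (-0.09). With median-of-ratios scaling its fall at 2 h was not called (-0.26, adjusted p = 0.38) and its level at 6 h was called higher (0.57). Dnmt3l, at 0.596 to 1.11 RPKM at 0 h and 0.407 to 0.753 at 6 h, was not called at any LPS time in WT. Ezh1 (chr11:101052429-101087764) went from 18.6, 19.98, 20.4 and 20.5 to 6.36, 6.89, 7.02 and 7.51 at 2 h (-1.45 ± 0.29, adjusted p = 7.19e-05) and to 18.9, 19.9, 18.9 and 18.2 at 6 h (-0.06, not called; 0.61 and called higher with median-of-ratios scaling). Ezh2 rose at 6 h from 11.5 to 13.9 to 15.9 to 18.4 (0.40 ± 0.15, adjusted p = 0.0221; 1.06 with that scaling). In dKO Ezh2 was not called at 6 h against 0 h (0.12 ± 0.15, adjusted p = 0.498), but without the 5 libraries it was called higher (0.26, adjusted p = 0.0281). With all libraries the difference in response was not called (-0.28, 95% half-width 0.45).

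Among the acetyltransferases, Kat2a (chr11:100566060-100573781), the GCN5 enzyme, fell in WT from 11.6, 11.2, 12 and 10.5 RPKM at 0 h to 5.33, 4.91, 5.08 and 6.3 at 1 h (-1.01 ± 0.28, limma adjusted p = 0.00565), 2.45, 2.69, 2.67 and 2.64 at 2 h (-1.92 ± 0.28, adjusted p = 5.07e-06) and 3.74, 4.4, 4.46 and 4.54 at 6 h. Its paralog Kat2b (chr17:53706296-53812046) ended higher, from 7.89, 7.18, 6.72 and 6.97 at 0 h through 4.28, 4.3, 3.85 and 4.06 at 2 h to 12.8, 12.3, 11.8 and 13.9 at 6 h (0.78 ± 0.32, adjusted p = 0.0287). Of the 8 Setd genes, 0 were called higher at any time and 6, 7 and 6 lower at 1, 2 and 6 h, against 45.5%, 68.5% and 60.9% of all genes lower and 6.84%, 11.2% and 14.9% higher (with median-of-ratios scaling 0 higher and 2 lower, 2 and 4, and 2 and 3). Setd7 (chr3:51319240-51364745), a lysine methyltransferase of histone H3 and other proteins, fell from 23.3, 24.9, 25.1 and 22.6 at 0 h to 6.65, 5.89, 6.64 and 6.34 at 2 h (-1.83 ± 0.27, adjusted p = 5.21e-06) and 7.36, 7.3, 6.77 and 7.37 at 6 h (-1.67 ± 0.27, adjusted p = 4.77e-06). Setd6 (chr8:98239813-98242904), which methylates the NF-kappaB subunit RelA, fell within 1 h from 5.68, 5.15, 4.85 and 4.84 to 2.09, 2.4, 2.29 and 1.75 (-1.10 ± 0.24, adjusted p = 0.000911) and stood at 1.5, 1.68, 1.53 and 1.32 at 6 h (-1.49). Setd4 (chr16:93583706-93604060) went from 2.1, 1.84, 1.94 and 1.8 to 0.669, 0.195, 0.364 and 0.241 at 2 h (-1.51, given with no test for the reason above). Setd1a (chr7:134920903-134943633), a COMPASS methyltransferase of promoters, fell from 9.73, 11.2, 10.5 and 9.24 to 4.67, 4.85, 4.74 and 4.35 (-1.05 ± 0.18, adjusted p = 1.71e-05).

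The 4 Smyd genes were all called lower at 6 h in WT (all genes: 60.9%), and 3 of them, without Smyd2, with median-of-ratios scaling (33.8%). Both counts include Smyd4, whose fall the level threshold favours, and are too small to set the family apart. Smyd5 (chr6:85381970-85396423) fell from 9.26, 8.45, 7.89 and 9.16 RPKM at 0 h to 4.55, 3.42, 3.47 and 4.56 at 1 h (-1.04 ± 0.36, limma adjusted p = 0.0201; -0.58 and not called with median-of-ratios scaling, adjusted p = 0.109), 1.74, 1.46, 1.79 and 2.14 at 2 h (-2.01 ± 0.36, adjusted p = 2.75e-05) and 1.91, 1.51, 1.98 and 1.9 at 6 h. Smyd3 (chr1:180885170-181448134), which methylates a kinase of the MAP kinase pathway, changed late. It stood at 2.3, 1.87, 2.43 and 2.41 at 0 h, 1.63, 2.16, 1.58 and 1.36 at 2 h and 0.272, 0.24, 0.0788 and 0.269 at 6 h (-1.95 ± 0.33, adjusted p = 8.29e-06), and in dKO at 6 h 3 libraries had 0.215 to 0.337 RPKM and replicate 4, nearest to WT at 2 h, 2.23. Smyd4 (chr11:75161935-75219207) went from 2.03, 1.92, 2.21 and 2.15 to 0.116, 0.25, 0.205 and 0.205 at 2 h (-1.90, with no test) and 0.704, 0.546, 0.546 and 0.546 at 6 h. The 22 genes outside the naming rule, which include Tet2, Brd2, Sirt1, Kdm5c and Kat2b above, had log2 differences in WT of -0.74 to 0.55 at 1 h, -0.998 to 0.80 at 2 h and -0.93 to 0.78 at 6 h. Of these 22, 1 was called higher and 8 lower at 1 h (all genes: 6.84% and 45.5%), 4 and 16 at 2 h (11.2% and 68.5%), and 5 and 10 at 6 h (14.9% and 60.9%).

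Taken by the time of their mean levels in WT, 44 of the 60 genes were highest at 0 h, 1 (Kdm6b) at 1 h, 4 (Brd2, Kdm5c, Sirt1 and Tet2) at 2 h and 11 at 6 h. The lowest mean fell at 2 h in 39 genes and at 6 h in 13. These are means of RPKM, a scale on which the median of all genes shifted too. In WT that shift was -0.42, -0.73 and -0.65 (log2) at 1, 2 and 6 h. The same counts were not made over all genes, so those of either genotype are no result about the group. In dKO, 44 were also highest at 0 h, but the lowest mean fell at 6 h in 31, at 1 h in 20 and at 2 h in 2. The dKO 2 h group holds 2 of the 5 libraries, nearest to WT at 0 h and 6 h, and their part in these counts was not tested.

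In dKO cells LPS called 3 of 60 higher and 34 lower at 1 h (all genes: 5.82% and 44.1%), 4 and 36 at 2 h (9.17% and 53.8%), and 6 and 34 at 6 h (14.7% and 60.2%). With median-of-ratios scaling the counts were 10 and 8 (12.8% and 11.2%), 13 and 17 (22% and 18.5%), and 21 and 20 (31.7% and 33.8%). Brd2 rose at all 3 times in dKO (0.31, 0.48 and 0.76), Sirt1 at 2 h (0.57) and Kdm5c at 2 and 6 h (0.44 and 0.62). Without the 5 libraries 4 were higher and 42 lower at 1 h (all genes 9.49% and 67.8%), 6 and 46 at 2 h (13.8% and 72.3%), and 12 and 42 at 6 h (18.8% and 68.5%). Single libraries moved the total called: 15 to 41 genes at 1 h, with the fewest without dKO 1 h replicate 2, 23 to 50 at 2 h, with the fewest without dKO 2 h replicate 3, and 36 to 45 at 6 h.

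Whether the LPS response differed between the genotypes was tested directly. At 1 h 0 of the 60 were called (all genes 0.0359%), at 2 h 1 was called higher and 0 lower (0.134% and 0.17%, 0.305% in all), and at 6 h 0 were called (0.923%). At an unadjusted limma p under 0.05 there were 2 of 60 at 1 h, 15 at 2 h and 5 at 6 h. The share of all genes under that limit was not counted, so these counts are no result about the group. At 2 h the median difference in response was 0.41 for the 60 genes and 0.26 for all genes tested. The gene whose difference in response was called at 2 h was Kdm3a. Its log2 difference from 0 h was -1.43 in WT and -0.22 in dKO, and the dKO value was not called (limma adjusted p = 0.293). Without the 5 libraries Kdm3a was called lower in dKO too (-0.75, adjusted p = 9.62e-06). With all libraries the responses had a difference of 1.21 ± 0.26 (adjusted p = 0.0312). This call was lost without any 1 of 11 libraries, with a replicate block (adjusted p = 0.115) and in a fit to the 4 groups alone (adjusted p = 0.379). Without the 5 libraries it was 0.68 (adjusted p = 0.0131).

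Without the 5 libraries more differences in response were called, 1 at 1 h, 4 at 2 h and 10 at 6 h (all genes 1.8%, 5.62% and 20.3%). They were Kdm5a at 1 h (-0.46), and Kdm3a, Kdm2b (-0.58), Kdm5d (-0.48) and Kdm2a (-0.41) at 2 h. At 6 h, Kdm3a (0.60), Sirt1 (0.48), Dnmt3a (0.42), Setd8 (0.33) and Kdm1a (0.32) had higher values in the dKO response, and Kdm2b (-0.76), Smyd5 (-0.58), Kdm1b (-0.51), Hdac4 (-0.44) and Ezh1 (-0.30) lower ones. The dKO 2 h group is then 2 libraries.

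The partner genes of the fixed lists were called lower more often than higher with LPS in WT, as were all genes (6.84% higher and 45.5% lower at 1 h, 11.2% and 68.5% at 2 h, and 14.9% and 60.9% at 6 h), and their counts set no list apart. DNA methylation readers and repair genes had 2 of 18 called higher and 10 lower at 1 h, 1 and 13 at 2 h, and 2 and 7 at 6 h. Their largest rise among the named genes was Gadd45a, a stress gene linked to DNA demethylation (3.21 at 1 h, limma adjusted p = 0.000156), and Uhrf1 fell by 2 h (-1.96, adjusted p = 4.07e-06) as its partner Dnmt1 did. Polycomb partners had 2 of 27 higher and 14 lower at 1 h, 5 and 17 at 2 h, and 5 and 12 at 6 h. Other lysine methyltransferases had 1 of 21 higher and 9 lower, 3 and 15, and 3 and 8. Dot1l rose at 1 h (1.05), Suv420h2 fell at 2 h (-2.58), and Setdb2 rose at 6 h (2.27). Other acetyltransferases had 0 of 15 higher and 7 lower at 1 h, 0 and 12 at 2 h, and 3 and 5 at 6 h, where Hat1 rose (1.71). Deacetylase corepressors had 0 of 21 higher and 11 lower, 2 and 15, and 3 and 14, remodellers 2 of 28 and 11, 5 and 17, and 6 and 11. Arginine methyltransferases had 0 of 8 higher and 5 lower, 0 and 8, and 1 and 6, and other JmjC demethylases 0 of 12 and 7, 1 and 8, and 1 and 7. With median-of-ratios scaling the split moved toward higher calls, for example to 4 higher and 3 lower Polycomb partners at 1 h, 11 and 9 at 2 h, and 12 and 4 at 6 h. Cell cycle genes fell with LPS as well, with 25 of 27 called lower at 6 h in WT (all genes: 60.9%). With median-of-ratios scaling 22 were called lower (all genes: 33.8%).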

How the data were processed

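RNA of mouse bone marrow-derived dendritic cells (4 µg per library, TruSeq kit per the labels' protocols) was sequenced in 32 libraries. The authors' deposited tables hold, per gene, an mm9 position, an RPKM value and a second value, read from the values as a signal of aligned bases. CASAVA 1.8.2 and mm9 are named in the submitters' processing notes, and the aligner settings and annotation are not given in the sources used here. The deposited signal served for depth alone (1.27 to 1.87 Gb in a library). RPKM gives no read counts, so the scatter of libraries sets the precision. Rows of 92 spike-in controls did not enter the tests.

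Genes with an RPKM of 1 or more in at least 4 libraries were tested as log2(RPKM + 0.5) with limma 3.58.1 (R 4.3.3; 8 group means, intensity trend, degrees of freedom 24 residual and 3.55 prior, or 19 and 5.1 when the 5 libraries were left out). The 14 contrasts are two-sided, adjusted by Benjamini-Hochberg over 11154 genes, and called below 0.05. The procedure was tested on simulated data. Each library was correlated with the WT means of the 4 times, its own mean without itself, to find the 5 libraries. The rule named genes called with a log2 difference of at least 1 in a genotype, WT LPS or response comparison, or otherwise up to 4 with the smallest adjusted p in each, which gave 38 genes, with others where a statement needs them; some are not reported here. The genes, lists and tests were chosen with earlier results of these data known. Alternatives were pseudocounts of 0.1 and 1, no filter, a filter at 5 RPKM, median-of-ratios scaling, a replicate block, a fit to the groups compared, leaving out each library, and leaving out the 5 libraries. Promoter windows were read from RefSeq with pandas 2.3.3 and numpy 2.4.6, and figures drawn with matplotlib 3.10.9.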

Additional observations from a re-analysis of the deposited data

Results flagged for a closer look

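Of 184 groups of 4 libraries looked at for the named genes, 15 held a library whose gap to the next exceeded Dixon's 95% critical share of the group's range, a limit that chance passes in about 1 in 20 groups. In 4 of them the library was among the 5 nearest to another WT time. Hdac1 was at 13.5 RPKM in dKO 2 h replicate 4 (others 4.86 to 6.10) and at 6.49 in dKO 6 h replicate 4 (others 12 to 13.1). Hdac7 was at 1.92 in dKO 2 h replicate 2 (others 0.447 to 0.556), and Brd7 at 16.9 in dKO 0 h replicate 2 (others 24.0 to 25.3).

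The other 11 were WT libraries that matched their labelled time. At 0 h, Hdac7 was at 2.71 RPKM in replicate 4 (others 2.86 to 2.87) and Sirt3 at 8.94 in replicate 4 (others 6.92 to 7.17). At 1 h replicate 2 held Ezh1 at 14.2 (others at 13.4) and Hdac1 at 12.8 (others at 15.2). At 2 h Sirt4 was at 0.960 in replicate 2 (others 0.552 to 0.613). At 6 h replicate 4 held Ezh2 at 18.4 (others 15.9 to 16.3) and Hdac8 at 1.56 (others 0.851 to 0.960), replicate 1 held Kdm2a at 16.8 (others 17.8 to 18.0) and Smyd4 at 0.704 (others at 0.546), and replicate 3 held Setd7 at 6.77 (others 7.30 to 7.37) and Smyd3 at 0.0788 (others 0.240 to 0.272).

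The response of Kdm3a to 2 h of LPS differed between dKO and WT by 1.21 on the log2 scale in limma's test of the difference (adjusted p = 0.0312).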

How the results depend on the processing

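Of 94 results for named genes, 67 kept their direction and their side of the threshold under every alternative run, 27 were lost under at least 1, and 0 reversed. Median-of-ratios scaling lost 19 of 94, the replicate block 7 of 94, no filter 6 of 94, the fit to the groups compared 8 of 81, pseudocounts of 0.1 and 1 lost 1 each, the filter at 5 RPKM 0 of 70, and leaving out the 5 libraries 1 of 94. Leaving out single libraries lost 107 of 1072. The cause was not tested.

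Without the 5 libraries the number of the 60 called went from 3 to 12 at 0 h, 5 to 25 at 1 h, 5 to 17 at 2 h and 8 to 27 at 6 h of dKO against WT, from 13 to 40 on average, from 32 to 51 for WT at 1 h of LPS, and from 0 to 1, 1 to 4 and 0 to 10 for the differences in response. Median-of-ratios scaling gave 1 at 0 h of dKO against WT, 14 at 1 h of LPS in WT and 18 at 1 h in dKO. Without a filter 3 were called at 1 h and 3 at 2 h of dKO against WT. The fit to the groups compared, which has fewer libraries to estimate the spread, gave 10 at 1 h and 1 at 2 h of dKO against WT, 50 for WT at 1 h of LPS, 21 and 0 for dKO at 1 and 2 h, and 0 for the difference in response at 2 h.

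Leaving out 1 library gave 2 to 3, 2 to 5, 2 to 10 and 5 to 9 called at 0, 1, 2 and 6 h of dKO against WT, and 10 to 25 on average. It gave 24 to 28, 50 to 52 and 39 to 43 at 1, 2 and 6 h of LPS in WT, 15 to 41, 23 to 50 and 36 to 45 in dKO, and 0 to 0, 0 to 1 and 0 to 0 for the differences in response.

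The labels do not state what the replicate numbers pair. Deviations from the group means correlated above 0.1 in 1 of 16 same-numbered pairs across the genotypes, in 16 of 24 pairs of times within WT and in 5 of 24 within dKO. The correlations within WT were all above 0, at 0.02 to 0.24 (median 0.14). Those within dKO, where the 5 libraries lie, went from -0.77 to 0.29. These values do not settle whether equal numbers share a source. The main model took no pairing from the numbers, and a replicate block was run as an alternative. With the replicate block, 0 genes were called for the difference in response at 2 h, and no other count moved by over 1.5 times. Depth in reads is unknown, so genes near 1 RPKM, such as Dnmt3l, Smyd4, Hdac10 and Setd4, have a counting error that cannot be given.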
